A study of Homo sapiens with 12 samples.

Results

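NRF2, its inhibitor KEAP1 and 7 genes that NRF2 is known to switch on were followed through 12 FaDu libraries. The 9 genes are NFE2L2 (which encodes NRF2), KEAP1, SLC7A11, GCLC, GCLM, GSR, NQO1, HMOX1 and SRXN1. They were chosen by name for their roles in the NRF2 pathway and in glutathione synthesis, with earlier results of these data known. All 9 are among the 58288 genes of the table, and all 9 passed the filter on low values, a TPM (transcripts per 1000000) of at least 1 in 3 or more libraries, which 15973 genes passed.

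NRF2 is a transcription factor that KEAP1 holds in the cytoplasm and presents to a CUL3 ubiquitin ligase for degradation. Oxidants and electrophiles modify cysteines of KEAP1, NRF2 then accumulates in the nucleus, pairs with small MAF proteins and binds the antioxidant response element of its target genes. The targets supply glutathione, NADPH and detoxifying enzymes, and the pathway is often active in squamous carcinomas, where NFE2L2 and KEAP1 are recurrently mutated. Much of this control acts on NRF2 protein, which RNA-Seq does not measure.

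FaDu is a human head and neck squamous cell carcinoma (HNSCC) line. All cells carried Cas9 and a lentiviral guide selected with puromycin. The WT cells carried non-targeting gRNA 2, and the STING-/- (KO) cells carried STING gRNA 2, so that 1 guide stands for each genotype. Cells of each genotype were grown in DMEM with 10% FBS and were either unirradiated (0 Gy) or given 4 daily doses of 2 Gy (RT), with 3 libraries in each of the 4 groups. The time from the last dose to RNA collection, whether KO cells were a pool or 1 clone, and whether the 3 libraries of a group came from separate cultures were not stated in the sources used here. The p-values therefore measure the spread between these libraries, which may be technical. In bulk RNA, fewer cells of a kind and less RNA per cell cannot be told apart.

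The gene that encodes STING, listed as TMEM173, was at 21.1 to 26.1 TPM in the 6 WT libraries and at 5.18 to 7.41 TPM in the 6 KO libraries. Each library sums to 1000000, so the table keeps no read depth, and no counting error can be given. All 10 squamous epithelial markers examined were above 1 TPM in every library. Of the markers of other cells, 5 of 6 for fibroblasts, 1 of 3 for endothelium and 3 of 5 for leukocytes stayed under 1 TPM in every library. The summed level of the 3 endothelial markers was 11.5 to 15.9 TPM in unirradiated and 18.3 to 23.9 TPM in irradiated libraries. Nearly all of this sum came from CDH5 and VWF, while PECAM1 was at most 0.0989 TPM, and the part of this difference in the radiation results was not tested.

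The control regions of the genes for the subunits of glutamate-cysteine ligase are shown because GCLC transcripts fell after radiation in WT cells and GCLM transcripts passed no test. The difference between the 2 genes was not tested. Each line holds the 250 bases before the RefSeq start site on the minus strand, GCLC at chr6:53545102-53545351 and GCLM at chr1:93909431-93909680 (sequences from RefSeq, build GRCh38.p14). The GCLC start lies inside the longer gene of the GENCODE annotation, chr6:53497341-53616970. Capitals mark the core of the antioxidant response element.
GCLC: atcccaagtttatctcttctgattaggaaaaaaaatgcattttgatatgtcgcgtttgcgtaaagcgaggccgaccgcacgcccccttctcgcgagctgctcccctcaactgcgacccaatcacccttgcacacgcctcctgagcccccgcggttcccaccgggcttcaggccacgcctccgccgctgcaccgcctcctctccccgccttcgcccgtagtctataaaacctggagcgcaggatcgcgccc
GCLM: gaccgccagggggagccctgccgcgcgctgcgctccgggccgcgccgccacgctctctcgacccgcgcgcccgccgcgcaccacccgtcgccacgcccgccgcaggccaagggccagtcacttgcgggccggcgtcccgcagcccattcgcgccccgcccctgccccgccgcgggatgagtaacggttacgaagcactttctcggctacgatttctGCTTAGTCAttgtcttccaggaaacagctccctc
The core was searched as TGACNNNGC, or GCNNNGTCA on the other strand, in windows from 250 bases before to 50 bases after each start. The GCLM window held 1 match, GCTTAGTCA, which begins 34 bases before the start site. No match lay in the GCLC window, nor in those of NFE2L2, NQO1 and SRXN1. A KEAP1 window held 2 matches, TGACACGGC beginning 54 bases before the start and GCTTAGTCA beginning 31 bases before it. Of all 35116 windows, 13.3% held the core, and of 27305 genes, 16.1% had it in at least 1 window. Windows were found for 6 of the 9 genes, 8 windows in all, with no entry for SLC7A11, HMOX1 and GSR. A match describes these letters and does not show that a factor binds there, and no match says only that these letters are not in this window.

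In unirradiated WT cells, mean levels ran from NQO1 at 310.0 TPM through GCLM at 106.0 TPM and GCLC at 75.4 TPM to HMOX1 at 12.6 TPM. KEAP1 (54.9 TPM), NFE2L2 (51.3 TPM), SRXN1 (48.5 TPM) and GSR (40.8 TPM) lay between them, followed by SLC7A11 at 28.7 TPM. The NFE2L2 libraries overlapped those of KEAP1 above it and of SRXN1 below it in this order, and no other neighbours overlapped. The 9 genes together held 0.0639% to 0.0831% of all TPM.

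**Figure D1:**
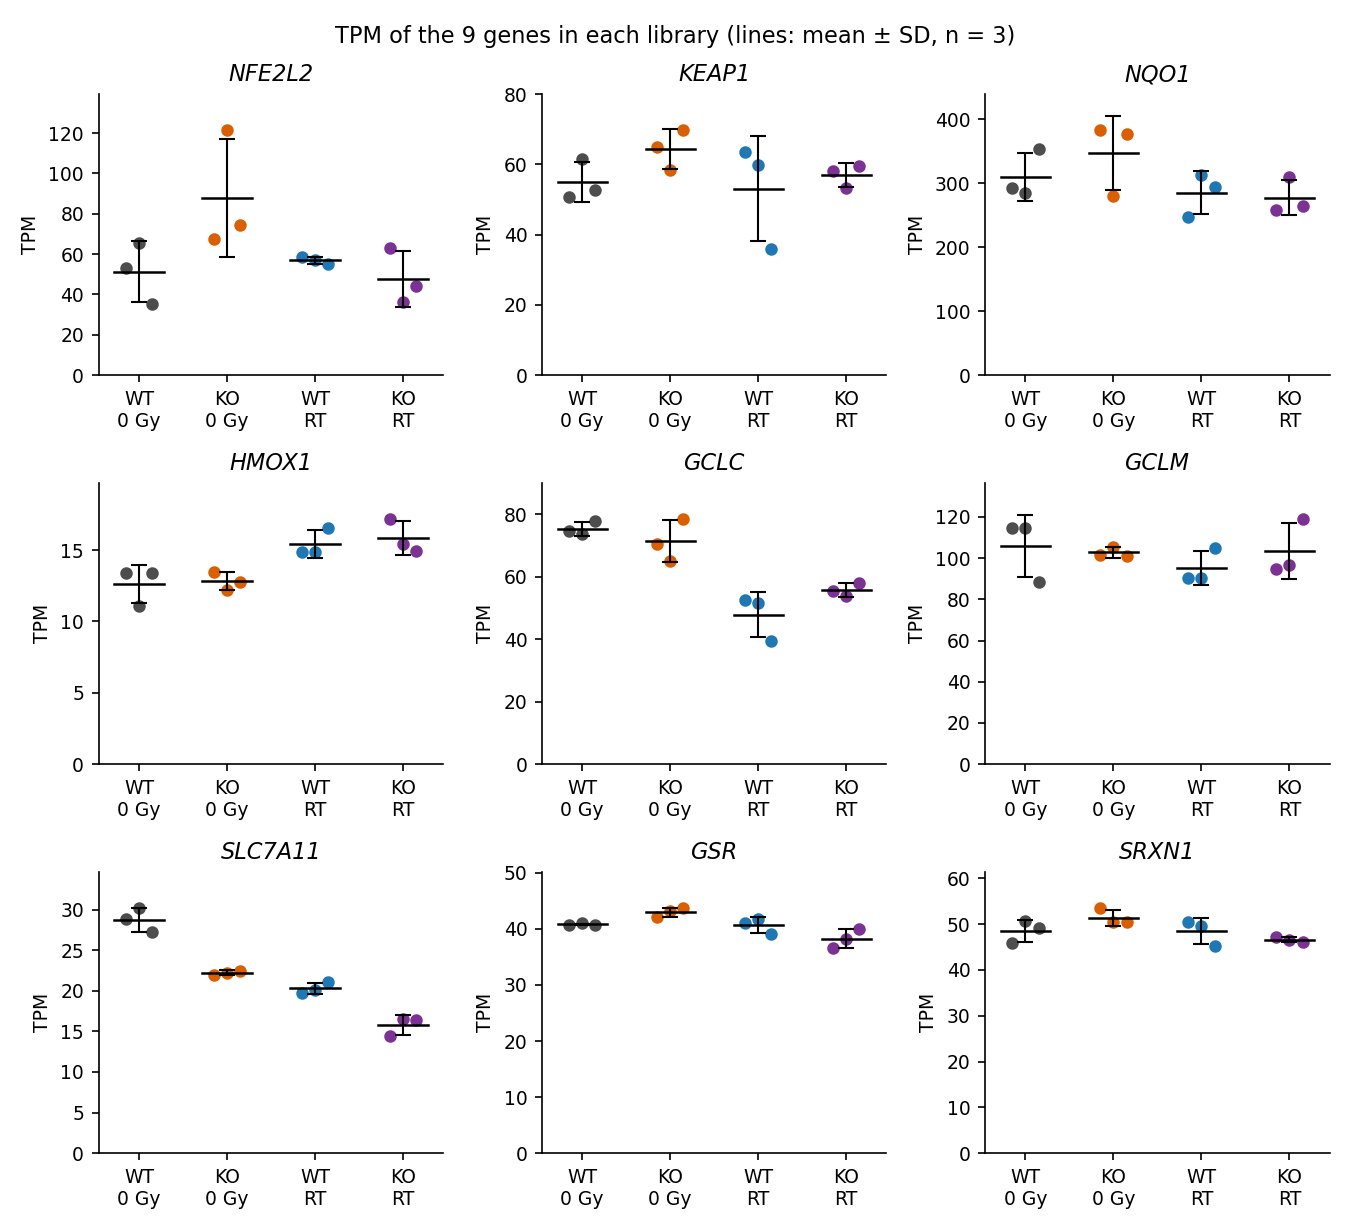
TPM of each of the 9 genes in the 12 libraries, by group on the horizontal axis. Points are libraries, and black lines give the mean ± SD of 3. SLC7A11 steps down over the 4 groups without overlap, GCLC and HMOX1 separate by radiation, and NFE2L2 has the widest scatter.

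SLC7A11 encodes xCT, the subunit of the cystine importer that brings in the cysteine needed for glutathione, and lies at chr4:138164097-138242349 on the minus strand. It was the gene among the 9 that fell with STING loss and fell again with radiation. In unirradiated cells its 3 libraries were at 28.8, 30.2 and 27.2 TPM in WT and at 21.9, 22.2 and 22.5 TPM in KO. After radiation they were at 19.8, 20.1 and 21.1 TPM in WT and at 14.4, 16.5 and 16.3 TPM in KO. No group overlapped another, with unirradiated WT highest, irradiated KO lowest, and unirradiated KO just above irradiated WT.

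On the log2(TPM + 1) scale, SLC7A11 differed between KO and WT by -0.36 in unirradiated cells (SE 0.064, limma adjusted p = 0.0189) and by -0.35 in irradiated cells (adjusted p = 0.0149). The mean KO level was 0.773 of WT without radiation and 0.775 of WT with it. Radiation changed SLC7A11 by -0.48 in WT (limma adjusted p = 0.00325) and by -0.47 in KO (adjusted p = 0.00372), which left 0.708 and 0.710 of the unirradiated mean. The radiation effect in KO minus that in WT was 0.0063, with a 95% confidence interval of -0.20 to 0.21 (limma adjusted p = 0.995). Fitted with only the 6 libraries compared, the KO difference of SLC7A11 had a limma adjusted p of 0.0833 unirradiated and 0.101 irradiated. In unirradiated cells the call was also lost without WT library 1 or 2, or without any 1 of the 3 KO libraries, with adjusted p between 0.0656 and 0.0806. In irradiated cells it was lost without WT library 2 (adjusted p = 0.0514) or WT library 3 (adjusted p = 0.0605). Both radiation calls held in each of these fits. Averaged over treatments, a comparison added after the data were seen, the KO difference of SLC7A11 was -0.35 (limma adjusted p = 0.00107). That averaged call held in 12 of the 12 fits that each left out 1 library.

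SLC3A2 encodes the heavy chain that carries xCT to the membrane. It was not past the threshold in any comparison, and its libraries ranged from 456 to 921 TPM, with overlap between every pair of groups. The tested genes whose centred profile over the 12 libraries lay closest to that of SLC7A11 were FOXD2-AS1, AC139530.1 and PALM, at root-mean-square differences of 0.078, 0.11 and 0.11 on the log2(TPM + 1) scale. The antisense gene SLC7A11-AS1 overlaps SLC7A11 and was at most 0.21 TPM.

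GCLC and GCLM encode the catalytic and the modifier subunit of glutamate-cysteine ligase, the rate-limiting enzyme of glutathione synthesis. GCLC fell with radiation in WT cells, and GCLM did not pass the test in any comparison. GCLC was at 74.5, 73.6 and 77.9 TPM in unirradiated WT, at 52.7, 51.4 and 39.5 TPM in irradiated WT, at 70.5, 65.1 and 78.4 TPM in unirradiated KO and at 55.3, 53.7 and 58.0 TPM in irradiated KO. Every irradiated library was below every unirradiated library, and the third irradiated WT library was the lowest of all. GCLM was at 114.8, 114.6 and 88.5 TPM in unirradiated WT, at 90.2, 90.4 and 104.8 TPM in irradiated WT, at 101.4, 105.7 and 101.2 TPM in unirradiated KO and at 94.6, 96.9 and 118.9 TPM in irradiated KO. Its 4 groups overlapped throughout.

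The radiation difference of GCLC was -0.65 in WT (SE 0.10, limma adjusted p = 0.0078), a mean 0.635 of the unirradiated level. In KO it was -0.35 (limma adjusted p = 0.0993), or 0.781 of the unirradiated mean. The difference between these effects was 0.31, with an interval of -0.018 to 0.63 (limma adjusted p = 0.76), so a smaller effect in KO was not shown. The KO value passed the threshold without the third irradiated WT library (adjusted p = 0.0312), and the WT value missed it in a fit to its own 6 libraries (adjusted p = 0.0675). Averaged over genotypes, also added after the data were seen, the radiation difference of GCLC was -0.50 (limma adjusted p = 0.00209). STING loss gave -0.082 in unirradiated cells (adjusted p = 0.782) and 0.22 in irradiated cells (limma adjusted p = 0.292), where the 3 KO libraries were all above the 3 WT libraries. The ratio of GCLC to GCLM TPM averaged 0.724 in unirradiated and 0.510 in irradiated WT, and 0.695 and 0.542 in KO. CCNA1, ICK and JAG2 were the tested genes with the profiles closest to GCLC, at root-mean-square differences of 0.11, 0.11 and 0.12.

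GSR encodes glutathione reductase, which returns oxidised glutathione to its reduced form. It had the smallest spread within groups of the 9 genes, and was at 40.8, 41.0 and 40.8 TPM in unirradiated WT, 42.1, 43.1 and 43.7 TPM in unirradiated KO, 41.1, 41.8 and 39.1 TPM in irradiated WT and 36.7, 38.1 and 40.1 TPM in irradiated KO. Unirradiated KO lay above every other group and irradiated KO overlapped only irradiated WT. Its radiation difference in KO was -0.16 (limma adjusted p = 0.0947), and none of its comparisons passed.

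HMOX1 encodes heme oxygenase 1, which opens the heme ring and is also under the repressor BACH1. It was the only 1 of the 9 genes with higher levels in all 6 irradiated than in all 6 unirradiated libraries. The share of all tested genes that separate 6 against 6 was not counted, here or for the other genes. In WT HMOX1 was at 13.4, 11.1 and 13.4 TPM unirradiated and at 14.8, 14.9 and 16.6 TPM irradiated. In KO it was at 13.5, 12.2 and 12.8 TPM unirradiated and at 17.2, 15.4 and 14.96 TPM irradiated. The radiation difference was 0.27 in WT (limma adjusted p = 0.126) and 0.28 in KO (adjusted p = 0.106), neither past the threshold. Averaged over genotypes, a comparison added after the data were seen, HMOX1 rose by 0.28 (limma adjusted p = 0.0176).

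NFE2L2 gave the largest differences among the 9 genes and the widest scatter between libraries, and passed no test. It was at 53.1, 65.6 and 35.2 TPM in unirradiated WT, 67.7, 121.4 and 74.6 TPM in unirradiated KO, 58.7, 56.9 and 55.3 TPM in irradiated WT and 62.9, 36.2 and 44.0 TPM in irradiated KO. The 3 unirradiated KO libraries were above all 9 others, with the second far above the rest. KO minus WT in unirradiated cells was 0.76, with an interval of 0.16 to 1.36 (limma adjusted p = 0.228). Radiation in KO gave -0.86 (limma adjusted p = 0.119), and the difference between the radiation effects was -1.05 (adjusted p = 0.734).

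AC079305.1, an antisense gene, lies within NFE2L2 at chr2:177264359-177265515 on the opposite strand. Its highest library was at 0.23 TPM in unirradiated WT, while unirradiated KO was at 1.5 to 1.82 TPM, irradiated WT at 0.131 to 0.776 TPM and irradiated KO at 0.899 to 1.63 TPM. It reached 1 TPM only in KO libraries and passed the filter through them, so no test between the genotypes is read from it. AGPS, which begins at chr2:177392644, overlaps only the outer end of the longer GENCODE gene of NFE2L2, chr2:177227595-177392697, from the opposite strand. It was at 48.0 to 53.9 TPM throughout. The RefSeq start windows of NFE2L2 lie inside that gene, at chr2:177264082-177264381 and chr2:177264678-177264977. AC079305.1 overlaps both windows, and AGPS overlaps neither. The strand setting of the quantification is not given in the sources used here. Reads of NFE2L2 and of its antisense neighbours may therefore not have been kept apart, and the part of this in the NFE2L2 values was not tested. Genes on the same strand also overlap NFE2L2, among them AC019080.1 at 1.78 to 3.1 TPM. Reads shared with them would not depend on the strand setting, and their part was not tested either.

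KEAP1 passed no test either. It was at 50.8, 61.4 and 52.6 TPM in unirradiated WT, 64.8, 58.3 and 69.7 TPM in unirradiated KO, 63.6, 59.8 and 35.9 TPM in irradiated WT and 58.2, 53.2 and 59.6 TPM in irradiated KO. The lowest value belonged to the third irradiated WT library, as for GCLC. The ratio of NFE2L2 to KEAP1 TPM averaged 0.928 in unirradiated WT, 1.40 in unirradiated KO, 1.14 in irradiated WT and 0.833 in irradiated KO, with single libraries from 0.670 to 2.08.

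NQO1, a quinone reductase often read as the marker of NRF2 activity, and SRXN1, which repairs overoxidised peroxiredoxins, also passed no test. NQO1 was at 291.7, 285.2 and 353.1 TPM in unirradiated WT, 382.8, 280.0 and 377.5 TPM in unirradiated KO, 247.5, 312.6 and 294.3 TPM in irradiated WT and 258.6, 309.3 and 264.9 TPM in irradiated KO. SRXN1 was at 45.9, 50.7 and 49.0 TPM in unirradiated WT, 53.5, 50.4 and 50.4 TPM in unirradiated KO, 50.5, 49.6 and 45.3 TPM in irradiated WT and 47.1, 46.4 and 46.2 TPM in irradiated KO. The groups of NQO1 overlapped throughout, and those of SRXN1 separated only between unirradiated and irradiated KO, where the irradiated libraries were lower.

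**Figure D2:**
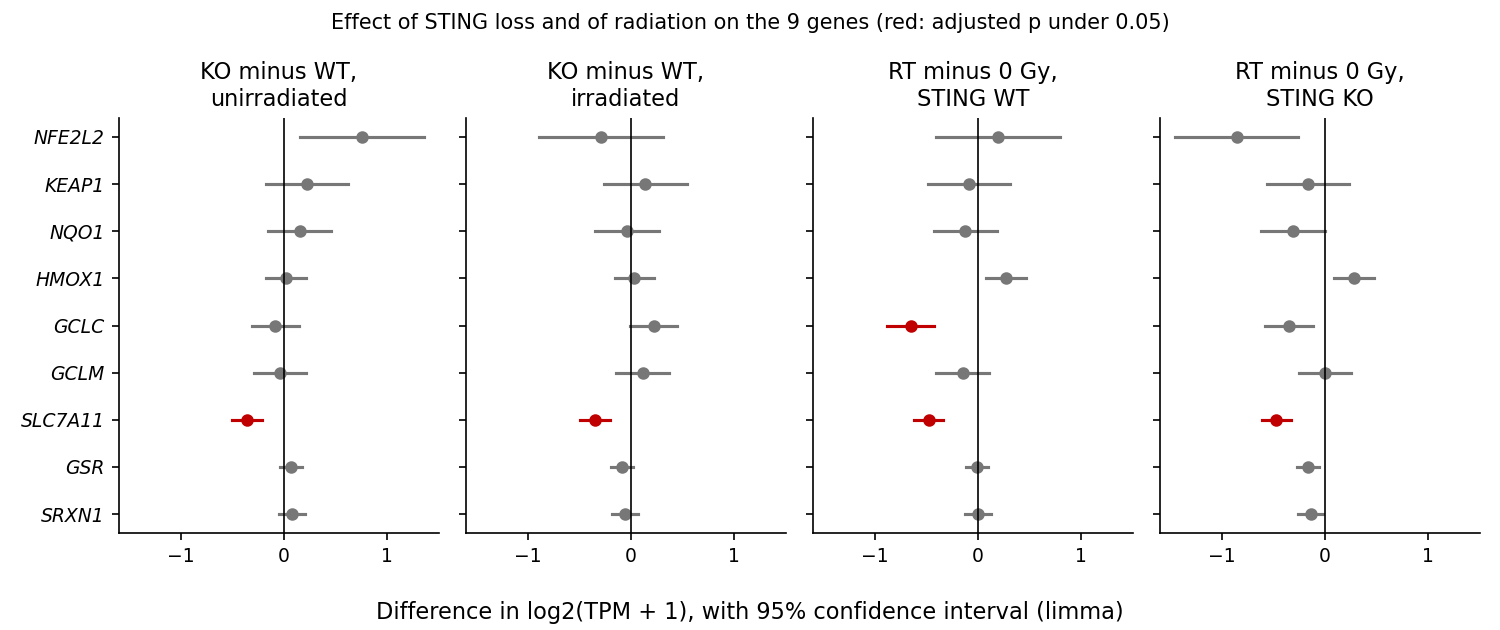
Difference in log2(TPM + 1) of each gene in the 4 comparisons, with 95% confidence intervals from limma. Red marks an adjusted p under 0.05: SLC7A11 is red and left of 0 in all 4 panels, GCLC only in the panel of radiation in WT, and NFE2L2 has the widest intervals.

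Counted over the 9 genes, STING loss changed 1 in unirradiated cells, where limma called 1.73% of all tested genes, and 1 in irradiated cells, where it called 3.59%. In both, the gene was SLC7A11 and it fell. Radiation changed 2 in WT (SLC7A11 and GCLC, both lower), against 3.74% of all tested genes, and 1 in KO (SLC7A11, lower), against 3.69%. The difference between the radiation effects was past the threshold for none of the 9 and for 0.0188% of all tested genes. An unadjusted limma p under 0.05 was found for 2 of the 9 (NFE2L2 and GSR), beside 1056 of all 15973 tested genes. Averaged over the other factor, STING loss changed 1 of the 9 (7.43% of all tested genes) and radiation 3 (10.2%), namely SLC7A11 and GCLC lower and HMOX1 higher. Comparisons of genotype and of treatment share libraries, so they are not independent of each other.

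The libraries of KO and WT did not overlap for 3 of the 9 genes in unirradiated cells (20.6% of all tested genes) and for 2 in irradiated cells (24.1%). Those of irradiated and unirradiated cells did not overlap for 3 of the 9 in WT (24.8%) and for 6 in KO (24.3%). The 6 in KO were HMOX1, which was higher, and NFE2L2, GCLC, SLC7A11, GSR and SRXN1, which were lower. The median difference over the 9 genes after radiation was -0.087 in WT and -0.17 in KO, beside 0.017 and 0.019 over all tested genes. For STING loss it was 0.071 unirradiated and -0.035 irradiated, beside -0.021 and -0.017.

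The spread within groups, against which each difference was tested, varied among the 9 genes. NFE2L2 had an SD within groups of 0.37 on the log2(TPM + 1) scale, wider than 89.8% of tested genes, and KEAP1 had 0.25, wider than 74.3%. GSR had 0.042, wider than only 3.94% of tested genes, SRXN1 0.060 and SLC7A11 0.069. The median over all tested genes was 0.15, near GCLM at 0.15 and GCLC at 0.14.

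**Figure D3:**
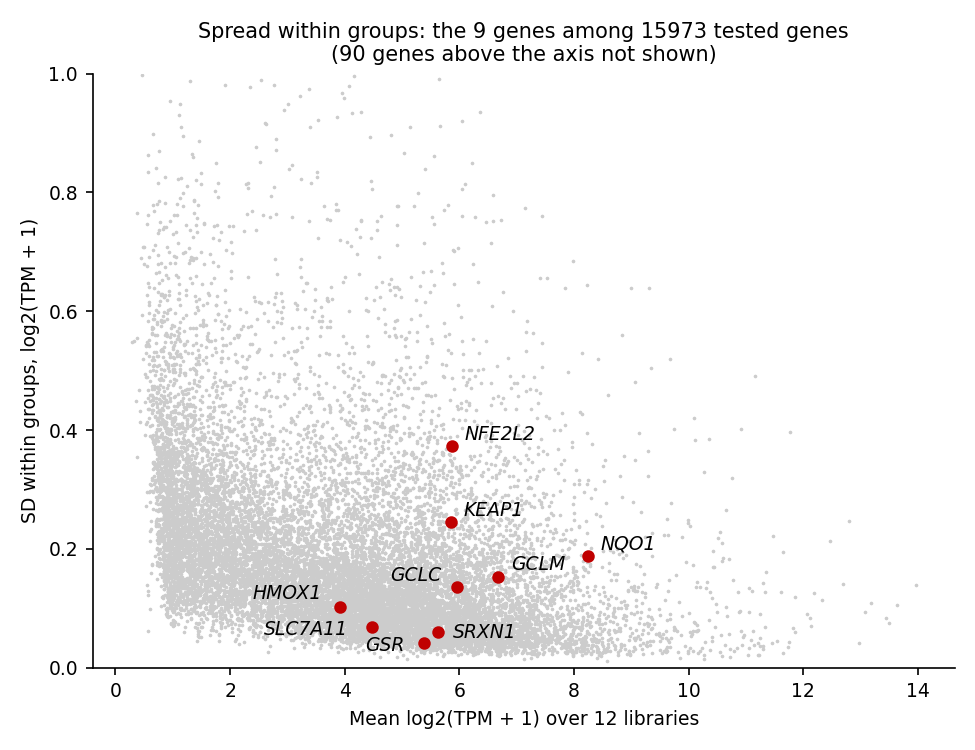
SD within groups against mean log2(TPM + 1) for the 15973 tested genes (grey) and the 9 genes (red). NFE2L2 and KEAP1 lie high for their level, and SLC7A11, SRXN1 and GSR lie low. The 90 genes with an SD above 1 are outside the axis.

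Glutathione reductase and thioredoxin reductase draw on NADPH. The gene lists from here on were also chosen with earlier results of these data known, so their shares are descriptions. Of 17 tested genes of NADPH supply, 3 fell in WT and the same 3 fell in KO, with none higher, or 17.6% of the list in each beside 3.74% and 3.69% of all tested genes. Among them were TKT, transketolase, and ME1, malic enzyme. TKT was at 482 to 521 TPM in unirradiated and 367 to 400 TPM in irradiated WT, a difference of -0.40 (limma adjusted p = 0.00235), and of -0.25 in KO (adjusted p = 0.0265). ME1 gave -0.19 in each genotype. IDH2, which makes NADPH in mitochondria, rose with STING loss by 0.21 in unirradiated cells (limma adjusted p = 0.0392) and by 0.29 in irradiated cells (adjusted p = 0.00499). It was the 1 gene of the list called for STING loss in each state, 5.88% beside 1.73% of all tested genes unirradiated and 3.59% irradiated. Of the 12 fits that each left out 1 library, none brought the radiation count in WT to 0 and 5 brought that in KO to 0. In 11 of them the IDH2 call in unirradiated cells was lost. The radiation count in KO and the count for STING loss in unirradiated cells were also 0 when limma was run with no trend. In irradiated cells the count for STING loss stayed at 1 in every fit. The median over the 17 was -0.14 after radiation in WT and -0.082 in KO.

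Of 31 tested genes of detoxification and export, 4 fell and none rose with radiation in WT, and 6 fell and none rose in KO. These are 12.9% and 19.4% of the list, beside 3.74% and 3.69% of all tested genes, of which 357 rose and 240 fell in WT and 319 rose and 271 fell in KO. ALDH3A1, an aldehyde dehydrogenase, had the largest fall in each, from 117 to 140 TPM down to 57.2 to 68.2 TPM in WT (-0.99, limma adjusted p = 0.000385) and from 201 to 221 TPM down to 99.4 to 119 TPM in KO (-0.97, adjusted p = 0.000552). PIR, an iron-binding nuclear protein, fell in both (-0.48 and -0.28). In WT the others were ALDH3A2 (-0.56) and CYP4F11 (-0.53). In KO the largest of the others were AKR1B10 (-0.86), the heme transporter SLC48A1 (-0.39) and the glutathione conjugate exporter ABCC1 (-0.34). AKR1B10 reached 1 TPM only in unirradiated libraries and passed the filter through them, so its value is a description. It is among the 6 in KO, so that count, its 19.4% and its range include a gene whose test is not read. With 1 library left out in turn, the count ranged from 2 to 5 in WT and from 2 to 6 in KO.

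With STING loss, ALDH3A1 moved opposite to SLC7A11. It rose by 0.77 in unirradiated cells (limma adjusted p = 0.00167) and by 0.79 in irradiated cells (adjusted p = 0.000852). In unirradiated cells it was the 1 of 31 detoxification genes called, 3.23% beside 1.73% of all tested genes. In irradiated cells PIR and EPHX1, an epoxide hydrolase, also rose, each by 0.32, and AKR1B1, an aldo-keto reductase, fell by 0.31. This count of 4 (12.9% of the list beside 3.59% of all tested genes) ranged from 1 to 4 with 1 library left out. The groups of ALDH3A1 did not overlap in any of the 4 comparisons.

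Of 31 tested genes of glutathione use, STING loss changed none in either state by limma, with 5 and 4 at an unadjusted p under 0.05. Over all 15973 tested genes limma called 276 and 573 (1.73% and 3.59%), and 2292 and 2855 had an unadjusted p under 0.05. The genes past the threshold after radiation were ANPEP, an aminopeptidase of the cell surface, in both genotypes and GLRX2 in KO. ANPEP had a mean of 0.302 TPM in unirradiated and 1.83 TPM in irradiated WT, and of 0.259 and 1.99 TPM in KO. It reached 1 TPM only in irradiated libraries and passed the filter through them, so its test is not read as a change. GLRX2, a glutaredoxin of mitochondria, rose in KO by 0.54 (limma adjusted p = 0.0388). The count of 2 in KO (6.45% of the list beside 3.69% of all tested genes) includes ANPEP. That count was kept in 1 of the 12 fits that each left out 1 library and was 0 in 5. GSS, glutathione synthetase, stayed between 83.3 and 96.0 TPM and passed no test. Of 14 thioredoxin genes, TXNDC17 rose by 0.24 with radiation in WT (7.14% of the list beside 3.74% of all tested genes) and no other was called in the 4 comparisons. Of 11 heme and iron genes, FTL (ferritin light chain, -0.12) and BLVRA (biliverdin reductase, -0.24) fell with radiation in WT (18.2% beside 3.74%), and none was called in the other 3 comparisons. The count of glutathione use after radiation in WT was ANPEP alone, whose test is not read, and was 0 in 10 of the 12 fits that each left out 1 library. The calls of TXNDC17, FTL and BLVRA lay close to the threshold. In the same 12 fits, the count after radiation in WT was 0 in 10 for thioredoxin and in 10 for heme and iron. With no trend in limma, the last pair were also at 0.

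Among 21 tested regulators, partners and relatives of NRF2, NFE2L3, a paralog of NFE2L2, fell with STING loss. It was the 1 called in each state, 4.76% of the list beside 1.73% of all tested genes unirradiated and 3.59% irradiated. It was at 7.53, 8.72 and 8.66 TPM in unirradiated WT and at 3.10, 3.34 and 3.25 TPM in KO (-1.14, limma adjusted p = 0.000506), and after radiation at 8.82, 9.36 and 9.20 TPM in WT and at 3.96, 5.44 and 5.95 TPM in KO (-0.74, adjusted p = 0.00607). No KO library reached a WT library. Within KO, NFE2L3 rose with radiation by 0.52 (adjusted p = 0.0375 by limma). There 2 regulators were called, 9.52% of the list beside 3.69% of all tested genes. That count was kept in 2 of the 12 fits that each left out 1 library and was 1 in the others. With only the 6 irradiated libraries fitted, no regulator was called for STING loss. NFE2L3 overlaps HNRNPA2B1 on the opposite strand, so its values carry the same doubt on strand as those of NFE2L2. RXRA, a nuclear receptor that can bind NRF2, fell with radiation by 0.44 in WT and by 0.48 in KO on the log2 scale. In WT, radiation called 1 of the 21 regulators, a fall, which is 4.76% of the list beside 3.74% of all tested genes. CUL3, SQSTM1, BACH1 and MAFG passed no test. 

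**Figure D4:**
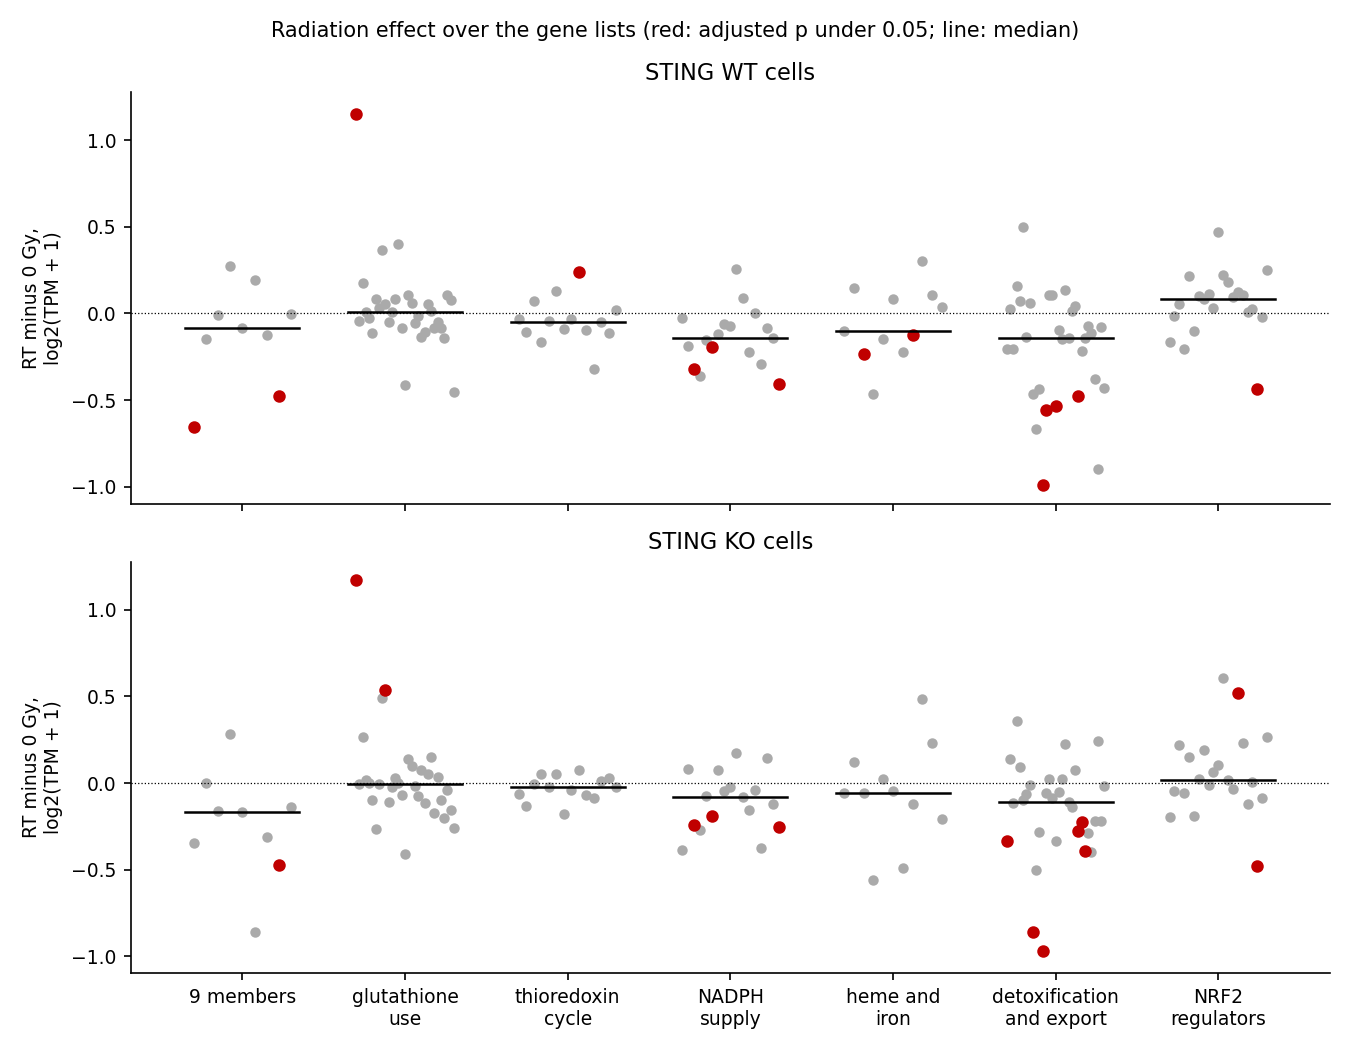
Radiation difference in log2(TPM + 1) of each tested gene in 7 lists, in WT (top) and KO (bottom). Each point is a gene, red where the limma adjusted p is under 0.05, and black lines are list medians. The red points of NADPH supply and of detoxification all lie below 0.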

How the data were processed

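Polyadenylated RNA of 12 FaDu libraries was sequenced as 100 bp paired ends, and the authors deposited 1 table of TPM per gene, in which each library sums to 1000000 with no further scaling between libraries. The submitters' processing notes name HISAT2, StringTie, DESeq2 and hg38, without versions or roles. Table columns carry short names of the cells, of which NT2 stands for non-targeting guide 2, which the study's methods give for WT, and the other was taken as KO by elimination. In the study's supplementary list of relative values, headed WT and KO, 150 of 150 genes gave the same value in all 12 columns within 0.001. No counts were used here.

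Genes that reached a TPM of 1 in at least 3 libraries were taken to log2(TPM + 1), which understates the change of low genes. limma 3.58.1 (R 4.3.3, eBayes with trend) fitted a single model of 4 group means to them, with 8 residual degrees of freedom and 5 contrasts. Adjusted p-values are Benjamini-Hochberg values over all 15973 genes, called under 0.05. The code was tested on simulated data. Contrasts averaged over genotype or treatment were added after seeing the data. Libraries of a group correlated at 0.9929 to 0.9945 and none was identical to another. Of 20 housekeeping genes, none was at 0.

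Named are the 9 genes, some of the genes that overlap them, and the 3 closest profiles of each called gene. Of each list the called genes are named, up to the 4 largest changes in a comparison. SLC3A2, GSS, CUL3, SQSTM1, BACH1 and MAFG were named for their roles, and PIR in irradiated KO besides. The values of 1 further called gene are not reported here. The members and lists were chosen with earlier results of these data known. Coordinates are from GENCODE release 29 (GRCh38), to which 58025 of 58288 identifiers matched, 55661 of them with version. Those of GCLC and GSR differ in version.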

Additional observations from a re-analysis of the deposited data

How the results depend on the processing

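Each comparison was repeated with a pseudocount of 0.1, no filter, genes averaging 5 TPM or more, median-of-ratios or quantile scaling, no trend in eBayes, a replicate block, only the 6 libraries compared, and each library left out. With only 6 libraries, 0 of the 9 genes were called for STING loss unirradiated, 0 irradiated, and 1 for radiation in WT, and over all tested genes 103, 252, 166 and, for radiation in KO, 195. Leaving out 1 library gave 0 to 1 of the 9 for STING loss in each state and 1 to 2 for radiation in KO. Over all tested genes it gave 172 to 292 and 313 to 542 for STING loss, 242 to 526 and 268 to 553 for radiation in WT and KO, 1 to 9 for the difference between radiation effects and 788 to 951 for STING loss averaged over treatments, the lowest without unirradiated KO library 2. The difference between radiation effects gave 7 without the filter and 1 with no trend in eBayes.

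Same-numbered libraries deviated together about as others did (r from -0.0602 to 0.0641 against -0.0698 to 0.0566). Of the 12, 0 correlated best with their own number in every other group. This gives no sign that the numbers pair the libraries, but it cannot exclude a shared culture or batch. The replicate block gave 378 genes for STING loss in irradiated cells, 315 and 359 for radiation in WT and KO, and 1 for the difference between them, and changed no call among the 9 genes.

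No called value changed sign. The values that did had all missed the threshold. GCLM after radiation in KO was -0.027 with median-of-ratios and -0.0049 with quantile scaling, and GSR for STING loss averaged over treatments 0.016 and 0.019. With 1 library left out, for STING loss unirradiated, GCLM ranged from -0.16 to 0.028 and HMOX1 from -0.061 to 0.065. Irradiated, HMOX1 ranged from -0.020 to 0.085, KEAP1 from -0.11 to 0.29 and NQO1 from -0.13 to 0.036. Averaged, GCLM ranged from -0.021 to 0.076, GSR from -0.023 to 0.0082, HMOX1 from -0.013 to 0.054 and SRXN1 from -0.010 to 0.029. For radiation in KO, GCLM ranged from -0.10 to 0.063. In WT, GSR ranged from -0.027 to 0.020, KEAP1 from -0.24 to 0.17, NFE2L2 from -0.051 to 0.39 and SRXN1 from -0.041 to 0.045. For the difference between radiation effects, HMOX1 ranged from -0.043 to 0.096, KEAP1 from -0.34 to 0.067 and SLC7A11 from -0.029 to 0.067. The cause was not tested. TPM keeps no depth, so what depth limits is unknown.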
